A study of Mus musculus with 11 samples.

Results

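Genes of transforming growth factor beta (TGF-beta) and bone morphogenetic protein (BMP) signalling were compared in the colon of germ-free and humanized mice. The genes were chosen by symbol from the deposited count table: TGF-beta, BMP, GDF and activin ligands, latent TGF-beta binding proteins, their receptors, secreted antagonists, SMAD proteins and the ID genes. Of 63 symbols that matched, 56 had at least 10 reads in at least 5 of the 11 mice, and 55 are described here, out of 43346 genes in the table. All 55 were among the 19863 genes that passed the low-expression filter of the test. The 7 others were Gdf2, Gdf3, Gdf6, Gdf7, Gdf9, Bmp10 and Bmp15. At the edge of the rule, Gdf5 reached 10 reads in 5 mice, while Gdf7 and Gdf9 did so in 3 mice each.

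Both groups were male Swiss Webster mice without any engineered allele named in the labels, singly housed in isolators on an autoclaved diet and studied at 8 to 10 weeks of age. The 5 germ-free mice had no microbiota. The 6 humanized mice had been germ-free until 4 to 5 weeks of age, when each was given stool of 1 healthy donor by gavage (300 μL of suspension), and they were then given 4 to 5 weeks for the microbiota to settle. All humanized mice therefore carried the microbiota of a single donor. No group received saline alone, so gavage and microbiota cannot be told apart.

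TGF-beta and BMP ligands are dimeric secreted proteins that bring together type I and type II receptor kinases. The type I receptor then phosphorylates receptor-regulated SMADs, SMAD2 and SMAD3 for TGF-beta and activin, and SMAD1, SMAD5 and SMAD9 for BMP, which enter the nucleus with the common SMAD4. In the intestine, BMP signals are strongest toward the epithelial surface and restrain stem cells, while antagonists such as gremlin 1 and noggin keep BMP activity low around the crypt base. TGF-beta is stored in the matrix in a latent form bound to LTBP proteins and is known for restraining immune responses and for driving matrix production by fibroblasts.

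Reads counted on genes numbered 49097005 to 64148538 per germ-free mouse and 39125290 to 54219854 per humanized mouse. The labels name no batch, so no values within batches could be given. Markers of the layers beneath the epithelium differed between the groups. All 12 smooth muscle markers were downregulated in humanized mice (median LFC = −1.98), and their summed level was 427 to 1196 RPKM in germ-free mice against 63.6 to 424 RPKM in humanized mice. Of 10 fibroblast markers, 9 were downregulated (median LFC = −1.37, summed level 277 to 442 RPKM against 33.3 to 226 RPKM). For telocytes, the fibroblasts that lie against the epithelium, 4 of 7 markers were downregulated, as were 2 of 9 endothelial, 8 of 9 glial and neuronal and 1 of 3 markers of interstitial cells of Cajal. Of 5 markers of trophocytes, the fibroblasts beneath the crypts, 2 were downregulated and 1 was upregulated, and neither of the 2 tested mesothelial markers was called. None of 11 epithelial markers was downregulated and 2 were upregulated (median LFC = 0.21, summed level 4429 to 6032 RPKM against 5087 to 7063 RPKM). Among immune markers, 4 of 6 T cell and 3 of 7 B and plasma cell markers were upregulated, and 0 of 6 myeloid markers were called (median LFC = −0.08). Of 4 platelet and blood markers, 1 was downregulated. No marker of smooth muscle, fibroblasts or epithelium was at 0 in any mouse. Humanized mouse 5 stood apart, with the lowest level of 11 smooth muscle, 10 fibroblast and 9 endothelial markers among the humanized mice. Germ-free mouse 4 and humanized mouse 6 had the highest smooth muscle levels of their groups. The median log2 ratio of these markers to the germ-free mean was 0.81 in germ-free mouse 4 and −0.58 to 0.03 in the other germ-free mice, and −0.60 in humanized mouse 6 and −3.93 to −1.91 in the other humanized mice. The part of these marker levels in the results below was not tested. In RNA of whole tissue, fewer cells of a type and less RNA per cell cannot be told apart.

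Of the 55 genes, 17 were downregulated in humanized mice and none was upregulated. The 17 include Gdf10 and Bmpr1b, which met the rule of 10 reads in 5 mice only through the germ-free group. The call is a false discovery rate (FDR) below 0.01 in edgeR's exact test, and a log2-fold change (LFC) below 0 means a lower level in humanized mice. Among all genes tested, 19.3% were called (10.1% downregulated and 9.2% upregulated). The LFC was below 0 for 45 of the 55 genes (81.8%, against 48.8% of all genes), and the median LFC was −0.52 against 0.01 over all genes. At an unadjusted p below 0.05, 31 of these genes were lower and 3 were higher (56.4% and 5.45%, against 19% and 18.5% of all genes). In 17 genes every humanized mouse was below every germ-free mouse, and in none was every humanized mouse above. The corresponding shares over all genes were 9.73% and 8.67%. These are not the same 17 genes as those called. Gdf10, Chrd and Bmpr1b were called with overlapping groups, and Bmp6, Fstl1 and Id2 had separate groups without a call. The quasi-likelihood test called 11 genes lower and none higher (6.53% and 7.05% of all genes), and DESeq2 called 22 lower and none higher (11% of all genes in each direction). With libraries scaled to total counts or to the epithelial markers, which moved the median LFC of all genes to −0.18 and −0.23, 30 and 27 genes were lower and none was higher. Over all genes these scalings called 18.2% and 15.6% lower and 3.89% and 2.76% higher. Calls gained under both were those of Bmp3, Fst, Fstl1, Fstl3, Acvr1b, Acvrl1, Bmpr2, Smad3 and Id2, with Ltbp2, Gdf11, Inha and Acvr1 gained under total counts alone and Bmp2 under epithelial scaling alone. The count rose to 27 lower and 1 higher (Smad1, LFC = 0.24, FDR = 0.00469) without humanized mouse 3, and to 24 lower and 0 higher without humanized mouse 5. Among all genes, 11.8% were then lower and 10.6% higher without mouse 3, and 11.5% and 9.52% without mouse 5. Fst, Fstl1, Acvrl1, Bmp4 and Bmp6 gained a call in both of these fits. All 17 downregulated genes kept their call without mouse 5.

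**Figure D1:**
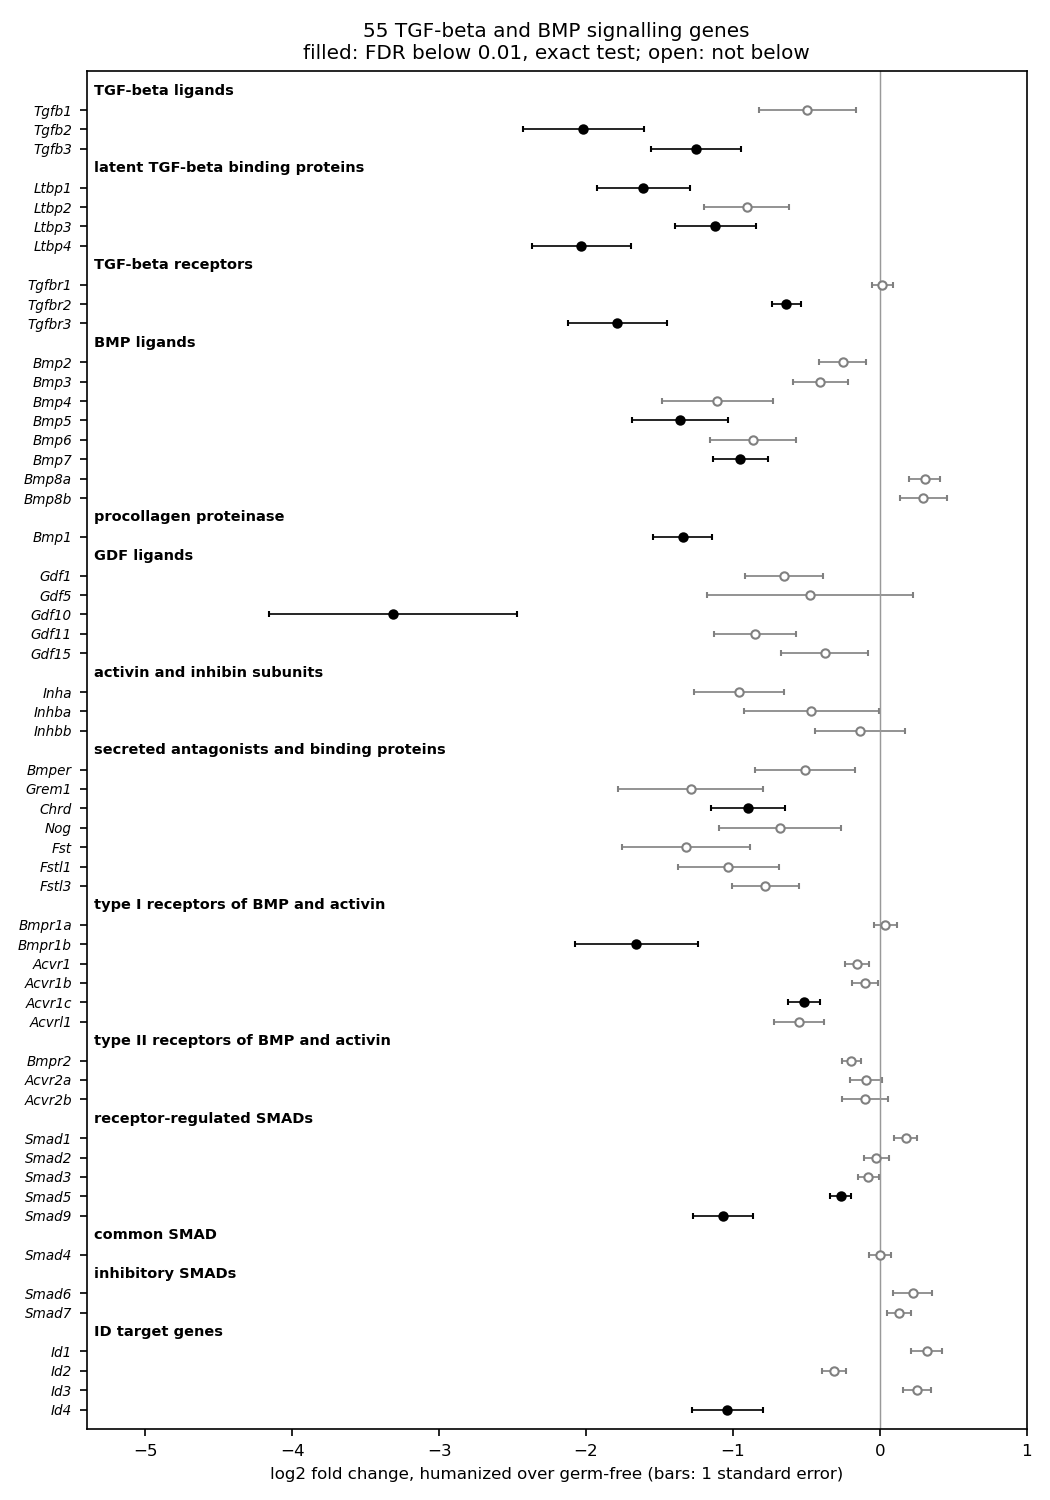
LFC of humanized over germ-free mice (horizontal axis, log2 scale) for the 55 genes in order of role, with bars of 1 standard error and filled points for FDR below 0.01 in the exact test. The 17 filled points all lie below 0, and most receptors and SMADs, apart from Tgfbr3, Bmpr1b and Smad9, sit nearer to 0 than most ligands, latent binding proteins and antagonists.

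Both ligand genes Tgfb2 and Tgfb3 were downregulated, while Tgfb1, the isoform best known for immune regulation, did not pass the test. Values are TMM-normalized RPKM, reads per kilobase of the deposited coding length, scaled to library size. Tgfb2 (ENSMUSG00000039239, mm10 chr1:186622792-186705989) had 0.783, 0.815, 0.844, 1.21 and 0.86 RPKM in the 5 germ-free mice and 0.0545, 0.234 and 0.401 RPKM as the lowest, median and highest value of the 6 humanized mice. The groups did not overlap, and the fitted level was 4.05-fold lower in humanized mice (LFC = −2.02, SE = 0.41, FDR = 3.6e-05). An exact permutation test of the mean RPKM over all ways to divide the mice gave a two-sided p of 0.00216, the smallest that 5 mice against 6 allow. Groups without overlap bring this p to or near that floor, so it adds little to their separation. Tgfb3 (ENSMUSG00000021253, mm10 chr12:86056744-86079041) had 1.7, 1.29, 1.86, 2.14 and 2.01 RPKM in germ-free mice and 0.236, 0.757 and 1.27 RPKM in humanized mice, again without overlap (LFC = −1.25, SE = 0.31, FDR = 0.000984). The Tgfb3 call was just lost in the quasi-likelihood test (FDR = 0.0103). Tgfb1 (ENSMUSG00000002603, mm10 chr7:25687002-25705077) had 2.91, 2.93, 3.6, 3.57 and 3.3 RPKM in germ-free mice and 0.527, 2.36 and 3.67 RPKM in humanized mice (LFC = −0.49, SE = 0.33, FDR = 0.3). Of the humanized mice, 5 were below every germ-free mouse, and mouse 3 was above them all. The Tgfb1 LFC was −0.67 without humanized mouse 3 and −0.28 without humanized mouse 5, with no call in either fit. Within each mouse, the level of Tgfb2 relative to Tgfb1 was 0.235 to 0.340 in germ-free mice and 0.0337 to 0.151 in humanized mice, a ratio without overlap, whereas the ratio of Tgfb3 to Tgfb1 overlapped (0.440 to 0.609 against 0.277 to 0.449).

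LTBP proteins tether latent TGF-beta to the matrix, and 3 of their 4 genes were downregulated. Ltbp4 (ENSMUSG00000040488, mm10 chr7:27305136-27337692), the most abundant per length, had 33.4, 25.5, 35.8, 37.8 and 35.6 RPKM in germ-free mice and 2.23, 7.65 and 15.4 RPKM in humanized mice. The highest humanized mouse was still below the lowest germ-free mouse (LFC = −2.03, SE = 0.34, FDR = 9.59e-08). Ltbp1 (ENSMUSG00000001870, mm10 chr17:75005568-75392512) had 2.55, 2.4, 3.01, 3.27 and 3.13 RPKM in germ-free mice and 0.317, 1.02 and 1.67 RPKM in humanized mice, also without overlap (LFC = −1.61, SE = 0.32, FDR = 1.44e-05). For Ltbp3 (ENSMUSG00000024940, mm10 chr19:5740904-5758532), germ-free mice had 3.83, 3.56, 4.16, 4.34 and 4.12 RPKM and humanized mice 0.621, 1.85 and 2.93 RPKM (LFC = −1.12, SE = 0.28, FDR = 0.00082). These groups were separate too, although the quasi-likelihood test missed the call (FDR = 0.0105). Ltbp2, whose product does not bind latent TGF-beta, had 0.264 ± 0.0735 RPKM (SD, n = 5) in germ-free mice and 0.141 ± 0.0614 RPKM (SD, n = 6) in humanized mice (LFC = −0.91, SE = 0.29, FDR = 0.0163). The summed level of the 4 genes was 31.9 to 45.7 RPKM in germ-free mice and 3.25 to 20.3 RPKM in humanized mice. In every one of these genes and of the 3 TGF-beta ligands, humanized mouse 5 was the lowest and humanized mouse 3 the highest humanized mouse. Most fibroblast markers had this order (10 of 10 lowest in mouse 5, 9 of 10 highest in mouse 3), but it was not particular to them. Mouse 5 was lowest for 6 of 6 myeloid and 9 of 9 endothelial markers, and mouse 3 highest for 5 of 6 and 5 of 9. For smooth muscle these counts were 11 and 0 of 12.

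Of the TGF-beta receptor genes, Tgfbr2 and Tgfbr3 were downregulated and Tgfbr1 was not called. Tgfbr2 (ENSMUSG00000032440, mm10 chr9:116087698-116175363), the type II receptor that binds the ligand, had 39.2, 41.1, 38.5, 39.3 and 36.6 RPKM in germ-free mice and 18.9, 25.5 and 29.7 RPKM in humanized mice. All 6 humanized mice were below all 5 germ-free mice, and the spread was small (LFC = −0.64, SE = 0.10, FDR = 1.48e-07). Tgfbr1 (ENSMUSG00000007613, mm10 chr4:47353222-47414931), the type I kinase that Tgfbr2 activates, had 10.0, 10.4, 8.95, 10.4 and 9.63 RPKM in germ-free mice and 9.1, 9.72 and 11.4 RPKM in humanized mice. These ranges overlapped in part (LFC = 0.02, 95% interval −0.14 to 0.17, FDR = 0.923). The Tgfbr1 LFC turned to −0.17 with total counts and −0.22 with epithelial scaling, without a call. The ratio of Tgfbr2 to Tgfbr1 within a mouse was 3.77 to 4.31 in germ-free mice and 2.01 to 3.08 in humanized mice. Tgfbr2 was lowest in humanized mouse 6. Tgfbr3 (ENSMUSG00000029287, mm10 chr5:107106570-107289629), which encodes betaglycan, a co-receptor that presents TGF-beta2, had 7.01, 3.7, 6.2, 7.12 and 5.77 RPKM in germ-free mice and 0.511, 1.77 and 2.96 RPKM in humanized mice. It was downregulated 3.45-fold without overlap (LFC = −1.79, SE = 0.34, FDR = 5.6e-06).

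The promoters of Tgfb2 and Tgfbr2 are shown because a ligand and its receptor were both downregulated without overlap of the mice. Each is the 250 bases before the RefSeq start site on GRCm38.p6, minus strand, written 5′ to 3′, and capitals mark matches on either strand to the motifs searched in all promoters. These were GGCGCC and the palindrome GTCTAGAC, which SMAD proteins bind, TATAAA for the TATA box, CCAAT for the CCAAT box, and the CArG box, with no overlap between matches in the windows shown. The window is chr1:186705990-186706239 for Tgfb2 and chr9:116175364-116175613 for Tgfbr2.
Tgfb2: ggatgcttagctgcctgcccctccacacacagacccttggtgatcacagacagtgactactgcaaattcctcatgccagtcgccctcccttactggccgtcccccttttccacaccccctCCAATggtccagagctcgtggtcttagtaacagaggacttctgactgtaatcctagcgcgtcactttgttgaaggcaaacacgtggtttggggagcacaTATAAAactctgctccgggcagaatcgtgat
Tgfbr2: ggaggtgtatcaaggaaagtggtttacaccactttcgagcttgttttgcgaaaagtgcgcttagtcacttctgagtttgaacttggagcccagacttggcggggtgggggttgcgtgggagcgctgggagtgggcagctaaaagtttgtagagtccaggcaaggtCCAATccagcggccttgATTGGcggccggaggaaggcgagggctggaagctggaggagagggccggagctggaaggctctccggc
In the Tgfb2 window, CCAAT lies at −130 to −126 and TATAAA at −31 to −26 from the start site. The Tgfbr2 window holds CCAAT at −85 to −81 and, on the other strand, at −68 to −64. RefSeq promoters were found for 41 of the 55 genes, and TATAAA occurred in 5 of them (12.2%, against 12.4% of all 32851 promoters) and CCAAT in 15 (36.6% against 33.8%). Both counts include Bmpr1b, whose RefSeq start site lay 187161 bases from the deposited 5′ end of the gene. The median GC content of the 41 windows was 66.8%, against 52.4% over all promoters. A match describes letters in a window and not a bound site.

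Among BMP ligands, Bmp5 and Bmp7 were downregulated and the 6 others did not pass the test. Bmp7 (ENSMUSG00000008999, mm10 chr2:172868012-172940321) had 5.68, 5.79, 6.24, 5.94 and 5.99 RPKM in germ-free mice and 1.61, 3.34 and 3.99 RPKM in humanized mice. The germ-free mice lay close together and above every humanized mouse (LFC = −0.95, SE = 0.19, FDR = 2.78e-05). Bmp5 (ENSMUSG00000032179, mm10 chr9:75775364-75900310), a ligand typical of subepithelial fibroblasts, had 7.41, 8.67, 7.16, 7.92 and 9.46 RPKM in germ-free mice and 0.696, 3.22 and 4.47 RPKM in humanized mice, without overlap (LFC = −1.36, SE = 0.33, FDR = 0.000474). An antisense gene, Gm26903, covers 46.7% of the Bmp5 exons in a GENCODE annotation, and the kit does not mark strand, so reads of these 2 genes cannot be told apart. Bmp4 (ENSMUSG00000021835, mm10 chr14:46383520-46390669), the main mesenchymal BMP of the gut, had 12, 10.1, 14.6, 13.1 and 14.7 RPKM in germ-free mice and 1.2, 6.02 and 11.2 RPKM in humanized mice. Humanized mouse 3 alone reached into the germ-free range, and the gene missed the threshold (LFC = −1.11, SE = 0.38, FDR = 0.017). The Bmp4 call was gained without humanized mouse 3 (LFC = −1.38, FDR = 0.00105) and also without humanized mouse 5 (LFC = −0.89, FDR = 0.000627).

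Bmp2 (ENSMUSG00000027358, mm10 chr2:133552159-133562885), made mainly by surface epithelium, had 11.1, 11.4, 11.2, 12.7 and 12 RPKM in germ-free mice and 7.36, 9.13 and 15.5 RPKM in humanized mice (LFC = −0.25, SE = 0.16, FDR = 0.279). Of the humanized mice, 5 were below all germ-free mice, and mouse 6 was above all of them. Without mouse 6 the Bmp2 LFC was −0.44 (FDR = 0.000191), and epithelial scaling gave −0.51 (FDR = 0.00354). Bmp3, a ligand that opposes other BMPs, was the most abundant BMP gene per length, with 52.2 ± 8.2 RPKM (SD, n = 5) in germ-free mice and 39.4 ± 12.3 RPKM (SD, n = 6) in humanized mice (LFC = −0.40, SE = 0.18, FDR = 0.0957). Its highest humanized value, 61.2 RPKM, was that of mouse 5, and without mouse 5 the Bmp3 LFC was −0.57 (FDR = 0.000433). Bmp6 had 2.22, 2.22, 2.72, 2.39 and 2.58 RPKM in germ-free mice and 0.454, 1.41 and 2.09 RPKM in humanized mice. Its groups did not overlap although it missed the threshold (LFC = −0.86, SE = 0.29, FDR = 0.0236). Bmp8a and Bmp8b had positive LFC values, 0.31 and 0.30 (FDR = 0.0947 and 0.27), which stayed above 0 under every scaling tried. Bmp8a was at 2.31, 2.44, 2.61, 2.17 and 2.31 RPKM in germ-free mice and 2.6, 2.78 and 3.5 RPKM in humanized mice, with humanized mouse 5 the highest. These paralogs resemble each other in sequence, and how reads that fit both were counted is not given in the sources used here. Bmp1 (ENSMUSG00000022098, mm10 chr14:70474557-70520260), which despite its name encodes a proteinase that trims procollagen and the antagonist chordin, was downregulated. It had 6.65, 6.92, 7.25, 8.41 and 7.78 RPKM in germ-free mice and 1.65, 2.74 and 4.49 RPKM in humanized mice, without overlap (LFC = −1.34, SE = 0.20, FDR = 1.33e-08).

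**Figure D2:**
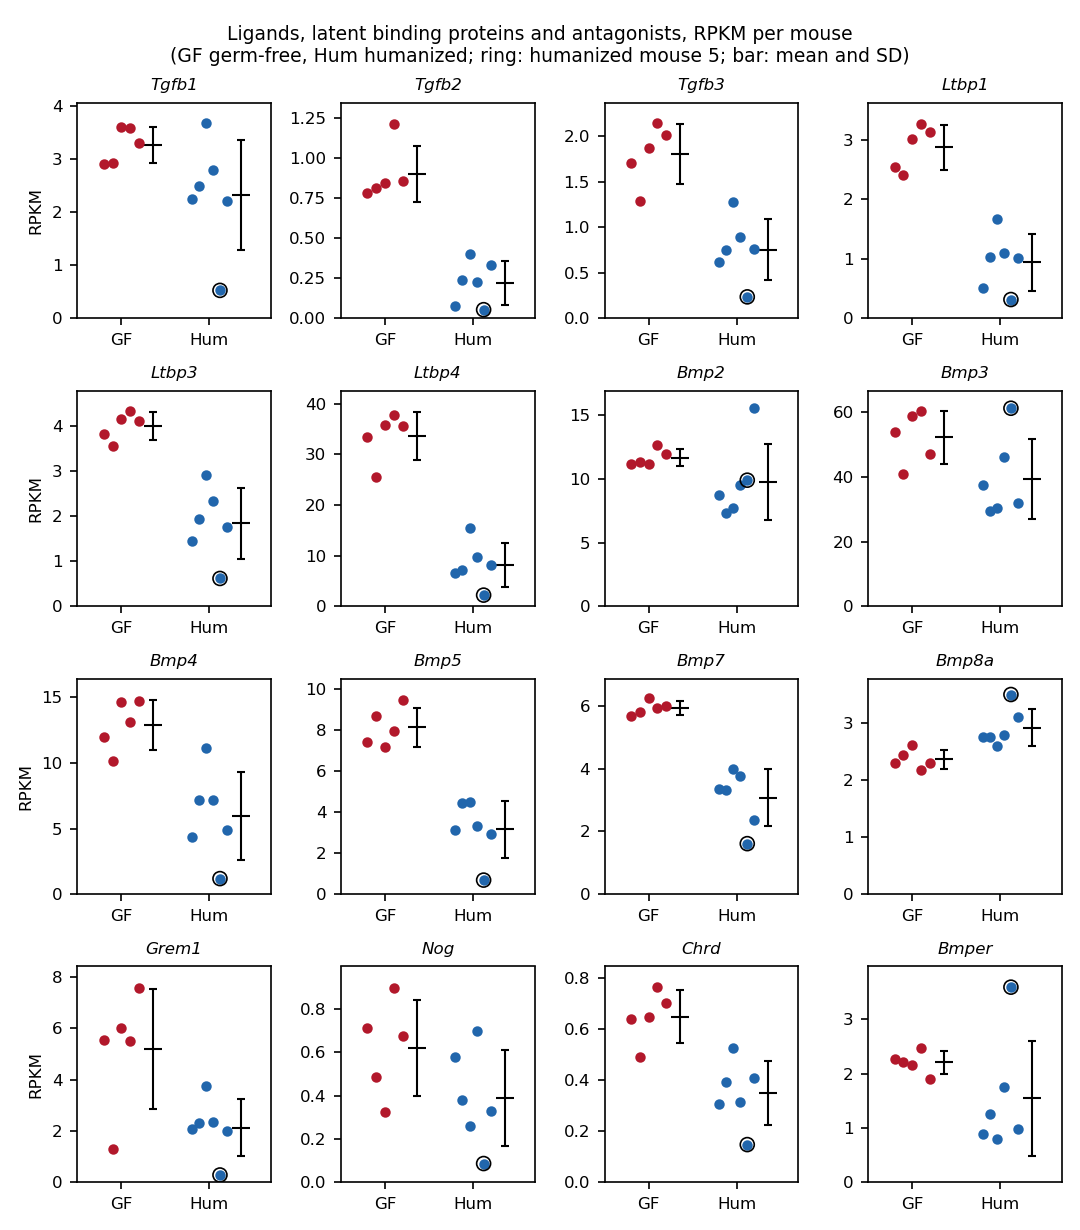
RPKM (vertical axes, from 0) of 16 ligand, latent binding protein and antagonist genes in each of 5 germ-free (GF) and 6 humanized (Hum) mice, with the mean and SD beside the points and a ring around humanized mouse 5. Points of the groups are separate for Tgfb2, Tgfb3, Ltbp1, Ltbp3, Ltbp4, Bmp5 and Bmp7, and the ringed mouse is lowest in most panels but highest for Bmp3, Bmp8a and Bmper.

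GDF, activin and inhibin genes were expressed at low levels, and 1 of these 8 genes passed the test. Gdf10 (ENSMUSG00000021943, mm10 chr14:33923587-33935280), also named BMP3B, had 0.367, 0.427, 1.14, 2.43 and 0.748 RPKM in germ-free mice and 0, 0.0477 and 0.39 RPKM in humanized mice, with 0 reads in humanized mouse 2 and 1 read each in mice 3 and 5. The gene was downregulated (LFC = −3.32, SE = 0.84, FDR = 0.00265), but humanized mouse 6 reached into the germ-free range, which itself spanned 0.367 to 2.43 RPKM. Gdf10 reached 10 reads in 7 mice, all 5 germ-free mice among them, and so met the rule through the group where it was high. The Gdf10 LFC was −2.71 without germ-free mouse 4 and −4.57 without humanized mouse 6. The Gdf10 call was lost without germ-free mouse 4 (FDR = 0.0205), without humanized mouse 1 (FDR = 0.0109) and in the quasi-likelihood test (FDR = 0.0128). Gdf11, a ligand close to myostatin, had 0.941 ± 0.15 RPKM (SD, n = 5) in germ-free mice and 0.523 ± 0.223 RPKM (SD, n = 6) in humanized mice (LFC = −0.85, SE = 0.28, FDR = 0.019), and Gdf1 had 0.878 ± 0.142 RPKM (SD, n = 5) in germ-free mice and 0.559 ± 0.216 RPKM (SD, n = 6) in humanized mice (LFC = −0.65, SE = 0.27, FDR = 0.0715). Gdf15, a stress-induced cytokine, had 0.376 ± 0.0883 RPKM (SD, n = 5) in germ-free mice and 0.285 ± 0.118 RPKM (SD, n = 6) in humanized mice (LFC = −0.38, SE = 0.30, FDR = 0.39). Gdf5 had 3 to 27 reads per germ-free mouse and 0 to 19 per humanized mouse, and its LFC of −0.47 had a 95% interval of −1.97 to 1.07. A gene on the other strand covers 40.3% of the Gdf5 exons. Activin subunit genes gave LFC = −0.46 for Inhba and −0.13 for Inhbb (FDR = 0.503 and 0.822), and the inhibin subunit gene Inha gave −0.96 (FDR = 0.0128).

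Secreted antagonists bind ligands and keep them from receptors, and 1 of the 7 genes described here was downregulated. LFC values of the 7 genes lay between −1.32 and −0.51. Chrd (ENSMUSG00000006958, mm10 chr16:20733127-20742384), which encodes chordin, had 0.638, 0.491, 0.647, 0.765 and 0.701 RPKM in germ-free mice and 0.148, 0.352 and 0.524 RPKM in humanized mice. It was downregulated (LFC = −0.90, SE = 0.25, FDR = 0.00648), although the ranges of the groups overlapped. This call was kept in 4 of the 11 fits that each left out 1 mouse and lost in the quasi-likelihood test (FDR = 0.0199). Without germ-free mouse 4, the Chrd FDR was 0.0297. Grem1 (ENSMUSG00000074934, mm10 chr2:113746164-113758646), which encodes a BMP antagonist of the crypt base and muscle layer, had 5.54, 1.32, 6.01, 5.5 and 7.56 RPKM in germ-free mice and 0.289, 2.2 and 3.74 RPKM in humanized mice (LFC = −1.29, SE = 0.49, FDR = 0.0359). Germ-free mouse 2 lay below 5 of the 6 humanized mice, and without it Grem1 was called (LFC = −1.54, FDR = 0.00422). Nog (ENSMUSG00000048616, mm10 chr11:89300638-89302332), which encodes noggin, had 0.711, 0.485, 0.323, 0.898 and 0.675 RPKM in germ-free mice and 0.0869, 0.355 and 0.697 RPKM in humanized mice, with wide overlap (LFC = −0.68, SE = 0.41, FDR = 0.252).

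Follistatin, encoded by Fst, binds activins and has relatives in Fstl1 and Fstl3. Fst had 2.35 ± 0.659 RPKM (SD, n = 5) in germ-free mice and 0.942 ± 0.565 RPKM (SD, n = 6) in humanized mice (LFC = −1.32, SE = 0.44, FDR = 0.0156), Fstl1 had 13.2 ± 2.71 RPKM (SD, n = 5) in germ-free mice and 6.48 ± 2.94 RPKM (SD, n = 6) in humanized mice (LFC = −1.03, SE = 0.34, FDR = 0.014), and neither passed the test, although the Fstl1 groups did not overlap. Fstl3 gave LFC = −0.78 (FDR = 0.0121), and exons of Prss57 on the other strand cover 47.3% of its exons. Bmper, a modulator of BMP4 in blood vessels, had another order across mice. The gene had 2.27, 2.22, 2.16, 2.47 and 1.9 RPKM in germ-free mice and 0.806, 1.12 and 3.59 RPKM in humanized mice, and the highest value of all 11 mice was that of humanized mouse 5, which was the lowest humanized mouse for the 6 other antagonists described here. Without mouse 5 the Bmper LFC was −0.96 (FDR = 8.93e-05), against −0.51 with all mice (FDR = 0.295). The ratio of Grem1 to Bmp4 within a mouse overlapped between the groups, at 0.130 to 0.515 in germ-free mice and 0.241 to 0.479 in humanized mice.

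Among the receptors of BMP and activin, 2 of 6 type I genes were downregulated and none of the 3 type II genes was called. Bmpr1a (ENSMUSG00000021796, mm10 chr14:34410734-34503341), the main BMP type I receptor of intestinal epithelium, had 21.5, 21.5, 20.6, 22.6 and 20.9 RPKM in germ-free mice and 19.7, 20.8 and 26.5 RPKM in humanized mice (LFC = 0.04, 95% interval −0.13 to 0.21, FDR = 0.817). The Bmpr1a LFC turned to −0.15 with total counts and −0.21 with epithelial scaling, without a call. Bmpr2 (ENSMUSG00000067336, mm10 chr1:59763400-59879014), the BMP type II receptor, had 5.09, 4.66, 4.44, 4.92 and 4.69 RPKM in germ-free mice and 3.65, 4.1 and 4.6 RPKM in humanized mice (LFC = −0.20, SE = 0.06, FDR = 0.0451). The groups overlapped, with 2 humanized mice above the lowest germ-free mouse. Bmpr2 was called with total counts (LFC = −0.38, FDR = 0.000233) and epithelial scaling (LFC = −0.43, FDR = 0.0044). Acvr1b, an activin type I receptor and the most abundant receptor gene per length, had 45 ± 2.29 RPKM (SD, n = 5) in germ-free mice and 42 ± 6.05 RPKM (SD, n = 6) in humanized mice (LFC = −0.10, SE = 0.09, FDR = 0.499), and was called lower under the same scalings (LFC = −0.29 and −0.35, FDR = 0.00551 and 0.00555). Acvr1c (ENSMUSG00000026834, mm10 chr2:58267453-58357895), which encodes ALK7, was downregulated, with 3.05, 2.66, 2.78, 2.95 and 2.8 RPKM in germ-free mice and 1.62, 1.98 and 2.49 RPKM in humanized mice (LFC = −0.52, SE = 0.11, FDR = 0.000381). Its groups did not overlap, and humanized mouse 5 was the highest of the humanized mice. Bmpr1b was downregulated by the call (LFC = −1.66, SE = 0.42, FDR = 0.000737) but was close to the detection limit, with 2 to 11 reads per humanized mouse and 12 to 40 per germ-free mouse. Bmpr1b reached 10 reads in 7 mice, all 5 germ-free mice among them, and so met the rule through the group where it was high. The quasi-likelihood test did not call it (FDR = 0.0116). Acvrl1, an endothelial type I receptor, had 6.62 ± 0.613 RPKM (SD, n = 5) in germ-free mice and 4.53 ± 1.23 RPKM (SD, n = 6) in humanized mice and narrowly missed the threshold (LFC = −0.55, SE = 0.17, FDR = 0.0108), beside endothelial markers whose summed level was 23.6 to 31.8 RPKM in germ-free mice and 4.21 to 20.7 RPKM in humanized mice. Acvr1, Acvr2a and Acvr2b gave LFC = −0.15, −0.09 and −0.10 (FDR = 0.295, 0.607 and 0.747).

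Of the 8 SMAD genes, Smad5 and Smad9 were downregulated, and the 6 others had LFC values between −0.08 and 0.22. Smad9 (ENSMUSG00000027796, mm10 chr3:54755582-54801257), the least abundant of the BMP-responsive SMADs per length, had 1.47, 0.715, 1.07, 1.04 and 1.02 RPKM in germ-free mice and 0.329, 0.512 and 0.699 RPKM in humanized mice, without overlap (LFC = −1.07, SE = 0.21, FDR = 7.51e-05). Smad5 (ENSMUSG00000021540, mm10 chr13:56703010-56742377), a partner in the same branch, had 11.3, 10.5, 10.0, 10.5 and 10.6 RPKM in germ-free mice and 7.31, 9 and 9.83 RPKM in humanized mice. The groups were separate and the shift was small (LFC = −0.27, SE = 0.07, FDR = 0.00744), and the call was kept in 3 of the 11 fits that left out 1 mouse, with FDR = 0.0342 without germ-free mouse 1, and lost in the quasi-likelihood test (FDR = 0.0144). Smad1, the third member of the branch, had 7.44 ± 0.303 RPKM (SD, n = 5) in germ-free mice and 8.41 ± 0.951 RPKM (SD, n = 6) in humanized mice (LFC = 0.18, SE = 0.08, FDR = 0.136), with an LFC of −0.01 under total counts and −0.07 under epithelial scaling. Smad3 (ENSMUSG00000032402, mm10 chr9:63646767-63757994), which carries TGF-beta signals, had 11.4, 11.5, 12.1, 11.6 and 11.6 RPKM in germ-free mice and 9.79, 10.6 and 12.9 RPKM in humanized mice (LFC = −0.08, 95% interval −0.24 to 0.08, FDR = 0.54). Smad3 was called lower with total counts (LFC = −0.27, FDR = 0.00542) and epithelial scaling (LFC = −0.32, FDR = 0.00471). Smad2 and the common Smad4 gave LFC = −0.02 (95% interval −0.21 to 0.16) and 0.00 (95% interval −0.17 to 0.17), and Smad4 turned to −0.19 and −0.25 under the total-count and epithelial scalings. The inhibitory SMADs, which BMP and TGF-beta signals are known to induce, were not called. Smad6 (ENSMUSG00000036867, mm10 chr9:63953076-64022059) had 7.1, 7.34, 8.65, 7.28 and 8.11 RPKM in germ-free mice and 6.52, 8.98 and 12.3 RPKM in humanized mice (LFC = 0.22, SE = 0.13, FDR = 0.262), and Smad7 had 9.17, 8.77, 10.1, 8.45 and 8.86 RPKM and 8.54, 10.2 and 11.3 RPKM (LFC = 0.13, SE = 0.08, FDR = 0.325). Epithelial scaling turned these LFC values to −0.02 for Smad6 and −0.12 for Smad7, and total counts turned Smad7 to −0.06. In both genes humanized mouse 5 was the highest mouse of all.

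**Figure D3:**
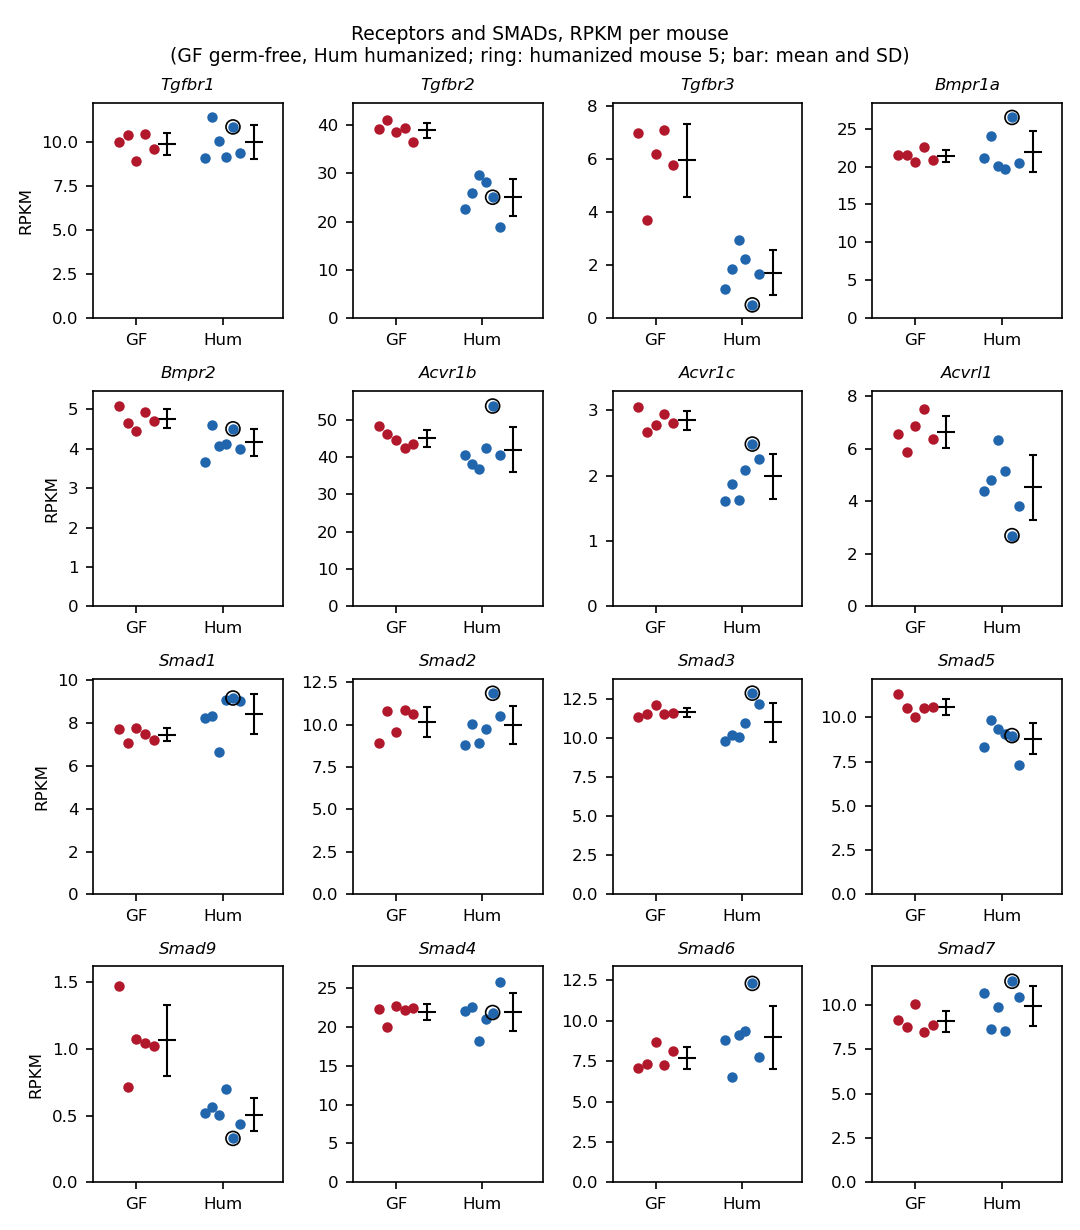
RPKM (vertical axes, from 0) of 16 receptor and SMAD genes in each of 5 germ-free (GF) and 6 humanized (Hum) mice, with the mean and SD beside the points and a ring around humanized mouse 5. Groups are separate for Tgfbr2, Tgfbr3, Acvr1c, Smad5 and Smad9, and the ringed mouse is the highest humanized mouse for Bmpr1a, Acvr1b, Acvr1c, Smad1, Smad2, Smad3, Smad6 and Smad7.

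The ID genes, helix-loop-helix inhibitors that BMP signals induce in many cells, were called in 1 of 4 cases. Id4 (ENSMUSG00000021379, mm10 chr13:48261427-48264036) was downregulated, with 8.65, 5.69, 7.35, 9.67 and 8.71 RPKM in germ-free mice and 1.79, 3.81 and 5.45 RPKM in humanized mice. Its groups did not overlap (LFC = −1.04, SE = 0.24, FDR = 0.00051). Id2 (ENSMUSG00000020644, mm10 chr12:25093801-25096092) had 17.3, 17.5, 19.4, 19.6 and 19.5 RPKM in germ-free mice and 12.6, 15.3 and 16.4 RPKM in humanized mice. Every humanized mouse was below every germ-free mouse, but the FDR was just above the threshold (LFC = −0.31, SE = 0.08, FDR = 0.0105), and below it in DESeq2 (FDR = 0.00196). Id1 (ENSMUSG00000042745, mm10 chr2:152736251-152737410), the most abundant of the 55 genes per length, had 59.4, 55.4, 75, 60.2 and 73.4 RPKM in germ-free mice and 65.7, 80.1 and 95.1 RPKM in humanized mice (LFC = 0.32, SE = 0.11, FDR = 0.0252). Id3 (ENSMUSG00000007872, mm10 chr4:136143497-136145755) had 36.6, 26.4, 36.3, 28.5 and 33.1 RPKM in germ-free mice and 34, 39 and 42.8 RPKM in humanized mice (LFC = 0.25, SE = 0.09, FDR = 0.0496). The groups of Id1 and of Id3 overlapped, their LFC values stayed above 0 under every scaling tried, and neither was called except Id1 without humanized mouse 4 (LFC = 0.37, FDR = 0.00848). Within a mouse, the ratio of Id4 to Id1 was 0.0980 to 0.161 in germ-free mice and 0.0200 to 0.0739 in humanized mice, and that of Id2 to Id1 was 0.259 to 0.325 and 0.141 to 0.223, both without overlap.

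Promoters of Id2 and Id4 are given because these family members had separate groups in the direction opposite to the LFC of Id1 and Id3. They are again the 250 bases before the RefSeq start site on GRCm38.p6, at chr12:25096093-25096342 on the minus strand for Id2 and chr13:48260866-48261115 on the plus strand for Id4, with the motifs above in capitals. The Id4 start site lay 311 bases from the deposited 5′ end of the gene.
Id2: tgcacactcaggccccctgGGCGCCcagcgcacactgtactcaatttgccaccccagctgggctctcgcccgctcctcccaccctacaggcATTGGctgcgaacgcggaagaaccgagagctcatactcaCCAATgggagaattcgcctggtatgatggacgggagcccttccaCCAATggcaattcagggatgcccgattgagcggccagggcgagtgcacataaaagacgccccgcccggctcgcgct
Id4: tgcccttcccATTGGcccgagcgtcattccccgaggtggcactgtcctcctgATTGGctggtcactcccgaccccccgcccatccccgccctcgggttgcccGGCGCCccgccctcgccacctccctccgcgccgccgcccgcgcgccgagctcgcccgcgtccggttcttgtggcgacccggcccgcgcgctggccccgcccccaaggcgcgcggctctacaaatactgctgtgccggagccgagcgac
The motif GGCGCC, a GC-rich sequence that SMAD proteins can bind, lies at −231 to −226 in the Id2 window and at −148 to −143 in the Id4 window. It was found in 8 of the 41 promoters (19.5%) and in 9.59% of all promoters, whose median GC content is lower, as given above. These 8 belong to Tgfbr1, Grem1, Chrd, Bmpr1a, Bmpr2, Smad9, Id2 and Id4, of which Chrd, Smad9 and Id4 were downregulated. GTCTAGAC, the palindromic SMAD-binding element, was in 0 of the 41 (0.167% of all promoters), and the CArG box of smooth muscle genes in 0 of the 41 (1.47% of all promoters).

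Humanized mice 5 and 3 often marked the ends of the humanized range. Mouse 5 was the lowest humanized mouse for 28 of the 55 genes (50.9%, against 28.2% of all genes), and mouse 3 was the highest for 26 (47.3% against 22.4%). Among the 17 downregulated genes, mouse 5 was lowest in 13 (76.5%, against 59.3% of all downregulated genes), the exceptions being Tgfbr2, Gdf10, Acvr1c and Smad5. Mouse 5 was also the highest humanized mouse for 11 genes, among them Bmp3, Bmp8a, Bmper and 5 SMAD genes. The spread between mice was wider in the humanized group, with a median coefficient of variation of 34.2% against 13.2% in germ-free mice, where the medians over all genes were 16.5% and 10.4%. The variation was larger in humanized mice for 51 of the 55 genes (92.7%, against 80.2% of all genes). For the 17 downregulated genes the median was 42.6% in humanized and 14.3% in germ-free mice, against 39.7% and 16.9% over all downregulated genes, and in humanized mice it ran from 9.94% for Smad5 to 148% for Gdf10.

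**Figure D4:**
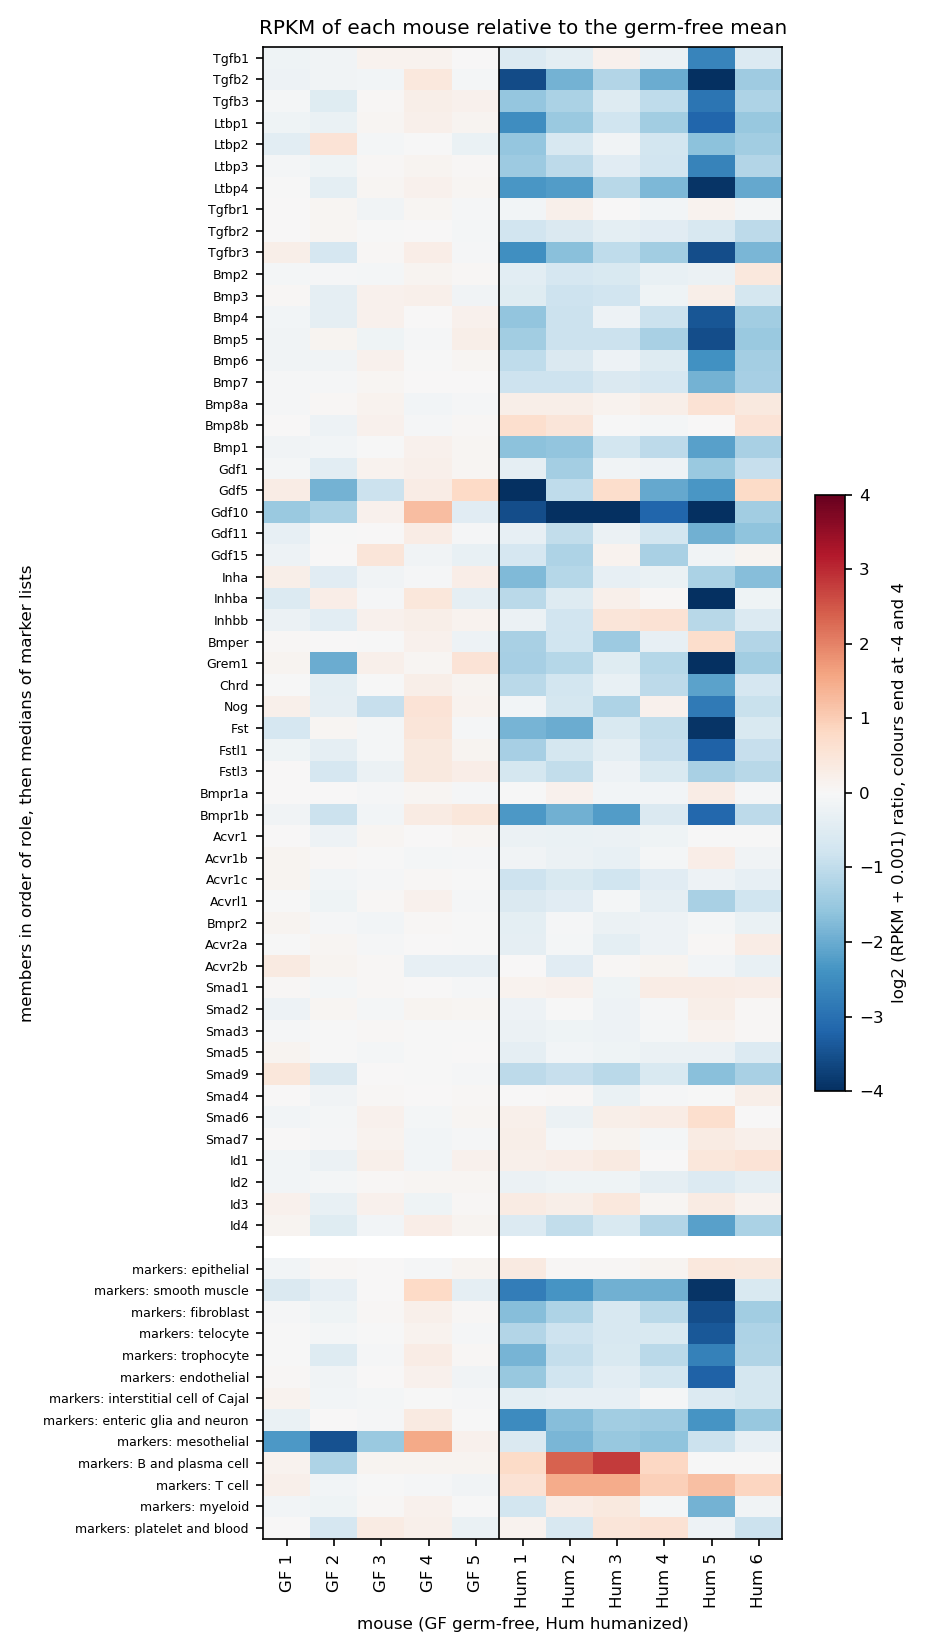
Level of the 55 genes, in order of role, in each of the 11 mice as the log2 ratio of RPKM + 0.001 to the germ-free mean, above the medians of the marker lists on the same scale (blue lower, red higher, colours end at −4 and 4). Columns of humanized mice are blue over most ligands, latent binding proteins and antagonists and pale over most receptors and SMADs, and the column of mouse 5 is darkest in most of the blue rows and in the smooth muscle, fibroblast and endothelial marker rows.

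Other genes of the pathway were read from a list of 76 symbols that the rule does not match. Of the 62 tested, 17 were downregulated, 6 were upregulated and 39 were not called, where 10.1% of all genes were downregulated and 9.2% upregulated. With total counts the split was 24 lower and 2 higher, with epithelial scaling 22 and 2, where the shares over all genes were the 18.2% and 3.89% and the 15.6% and 2.76% given above. Without germ-free mouse 3 the upregulated count was 3 (6.69% of all genes). Among 6 co-receptors, 4 were downregulated. Rgmb, a repulsive guidance molecule that acts as a BMP co-receptor, had 23.5 to 26.6 RPKM in germ-free mice and 15.6 to 19.2 RPKM in humanized mice (LFC = −0.55, SE = 0.06, FDR = 2.54e-11), and Rgma had 1.94 to 2.78 RPKM in germ-free mice and 0.512 to 1.38 RPKM in humanized mice (LFC = −1.30, SE = 0.21, FDR = 3.34e-07). Bambi, a pseudoreceptor that dampens TGF-beta signals, had 4.79 to 6.84 RPKM in germ-free mice and 1.96 to 3.82 RPKM in humanized mice (LFC = −1.01, SE = 0.15, FDR = 2.54e-08). Cd109, a TGF-beta co-receptor at the cell surface, gave LFC = −1.82 (FDR = 1.94e-05). The groups did not overlap in any of these 4 genes.

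In the set for latency and activation, 3 of 11 genes were downregulated and 1 was upregulated. Thbs1, which encodes thrombospondin 1, an activator of latent TGF-beta, had 10.7 to 13.4 RPKM in germ-free mice and 5.85 to 7.79 RPKM in humanized mice (LFC = −0.87, SE = 0.08, FDR = 2.17e-18). Fbn1, the fibrillin to which LTBP proteins attach, gave LFC = −1.13 (FDR = 4.53e-07), and Pcsk6, a convertase that matures ligands, gave −1.53 (FDR = 1.54e-05). Itgb6, whose epithelial integrin activates latent TGF-beta, was upregulated with 1.69 to 2.37 RPKM in germ-free mice and 2.32 to 3.94 RPKM in humanized mice (LFC = 0.50, SE = 0.14, FDR = 0.00709), with overlapping groups, and its call was lost under total counts, epithelial scaling and the quasi-likelihood test and kept in 4 of the 11 fits that left out 1 mouse. Among 11 further antagonists, 6 were downregulated and Tsku was upregulated. Tsku, which encodes tsukushi, a proteoglycan that binds BMPs, had 9.72 to 19.5 RPKM in germ-free mice and 27.3 to 39.5 RPKM in humanized mice, and every humanized mouse was above every germ-free mouse (LFC = 1.28, SE = 0.18, FDR = 1.15e-10). Nbl1, of the DAN family, had 47 to 60.4 RPKM in germ-free mice and 20.5 to 31.5 RPKM in humanized mice (LFC = −0.97, SE = 0.11, FDR = 5.05e-15), and Twsg1, a partner of chordin, had 28.5 to 32 RPKM in germ-free mice and 16.2 to 24.8 RPKM in humanized mice (LFC = −0.50, SE = 0.10, FDR = 3.85e-05), both without overlap. Sostdc1, Htra3 and Dcn gave LFC = −2.58, −1.41 and −1.38 (FDR = 0.000127, 3.29e-05 and 0.00106), and Dcn is itself among the fibroblast markers above. The Dcn call was lost in the quasi-likelihood test (FDR = 0.014). Sostdc1 had 0 to 14 reads per humanized mouse and 11 to 84 per germ-free mouse, and the groups of Sostdc1 and of Dcn overlapped.

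Of 20 intracellular regulators, 1 was downregulated and 2 were upregulated, which is near the shares over all genes. Skil, which encodes SnoN, a SMAD repressor and TGF-beta target, had 5.4 to 5.88 RPKM in germ-free mice and 6.42 to 9.28 RPKM in humanized mice (LFC = 0.49, SE = 0.09, FDR = 1.33e-05), and Strap, a receptor-associated protein, had 24.3 to 27 RPKM in germ-free mice and 28.5 to 33.7 RPKM in humanized mice (LFC = 0.25, SE = 0.06, FDR = 0.003). Both groups of mice were separate in these genes, but the calls were lost under total counts (Skil LFC = 0.30) and epithelial scaling (0.25), and for Strap under both as well (0.06 and 0.02). The Strap call was kept in 8 of the 11 fits without 1 mouse. Pmepa1, a TGF-beta-induced inhibitor of SMAD2 and SMAD3, was downregulated with 6.81 to 8.8 RPKM in germ-free mice and 2.43 to 5.83 RPKM in humanized mice (LFC = −0.80, SE = 0.18, FDR = 0.00029).

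Usual target genes went in both directions, with 3 of 11 downregulated and 2 upregulated. Tgfbi, a matrix protein named for its induction by TGF-beta, had 45.3 to 58 RPKM in germ-free mice and 17.5 to 28.9 RPKM in humanized mice (LFC = −1.34, SE = 0.12, FDR = 2.99e-22). Col1a1, also a fibroblast marker above, gave LFC = −1.56 (FDR = 0.000165), and the Notch and BMP target Hey1 gave −1.15 (FDR = 0.00474), a call kept in 3 of the 11 fits that left out 1 mouse and lost in the quasi-likelihood test (FDR = 0.0212). The cell cycle inhibitors Cdkn2b and Cdkn1a, which TGF-beta induces in epithelium, were upregulated. Cdkn2b had 29.1 to 35.3 RPKM in germ-free mice and 42.9 to 68.7 RPKM in humanized mice (LFC = 0.71, SE = 0.11, FDR = 5.78e-08), and Cdkn1a had 52 to 59.4 RPKM in germ-free mice and 63.4 to 104 RPKM in humanized mice (LFC = 0.45, SE = 0.12, FDR = 0.0028), with all humanized mice above all germ-free mice in both genes. Total counts, epithelial scaling and the quasi-likelihood test ended the Cdkn1a call, which was kept in 7 of the 11 fits without 1 mouse, while Cdkn2b kept its own under both scalings.

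**Figure D5:**
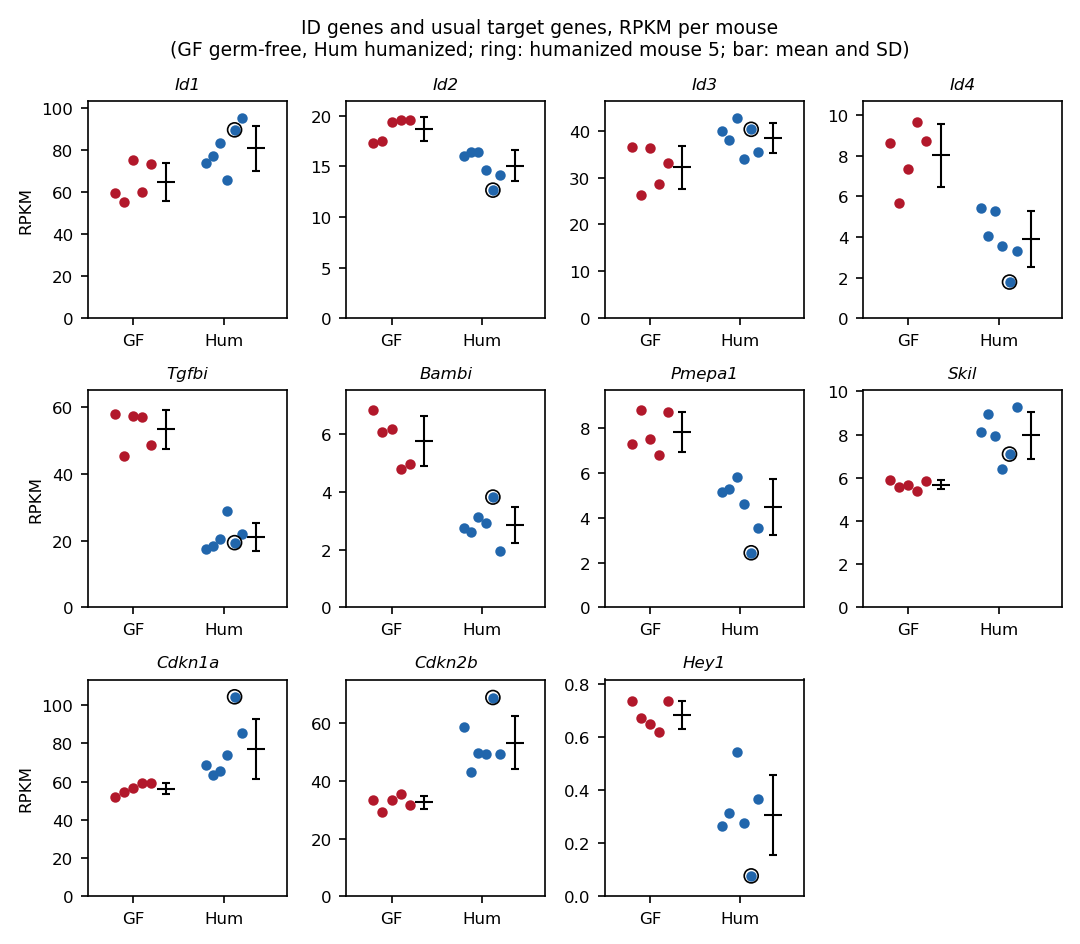
RPKM (vertical axes, from 0) of the 4 ID genes and 7 genes that TGF-beta or BMP signals are known to regulate in each of 5 germ-free (GF) and 6 humanized (Hum) mice, with the mean and SD beside the points and a ring around humanized mouse 5. Groups are separate and lower in humanized mice for Id2, Id4, Tgfbi, Bambi, Pmepa1 and Hey1, separate and higher for Skil, Cdkn1a and Cdkn2b, and overlapping for Id1 and Id3.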

How the data were processed

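Colonic RNA of 5 germ-free and 6 humanized mice was sequenced, and group membership of each column was read from the sample labels. The authors prepared libraries with a kit that does not mark strand, aligned 101 bp paired-end reads to mm10 with TopHat (2.1.0), which ran Bowtie (2.2.3), and deposited raw counts per gene from featureCounts of Subread 1.4.6-p5, without normalization. Versions are those of the study's methods and the submitters' processing notes, and the strand and multi-mapping settings and the annotation release are not given in the sources used here. The deposited table also gives a coding length per gene, whose computation is not stated.

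The analysis used edgeR 4.0.16 under R 4.3.3, with the exact test that the study's methods name but not the same edgeR version. Genes were filtered with filterByExpr (minimum count 10, minimum total count 15), leaving 19863. TMM-normalized libraries were compared with the exact test, with Benjamini–Hochberg correction over all 19863 genes and FDR below 0.01. Standard errors and 95% intervals come from the quasi-likelihood fit, and RPKM values use the TMM-normalized libraries and the deposited coding length. Single genes were also compared by an exact permutation test of mean RPKM, two-sided. The scripts were tested on simulated data.

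The genes and the gene and marker lists were chosen with earlier results of these data known. Values per mouse are given for genes below FDR 0.01 with no overlap between groups and for 21 genes of a fixed list. Bmp6, Bmp8a, Gdf10 and Bmper were added after their values were seen. These values are printed for each germ-free mouse, and as lowest, median and highest value for the humanized mice. Other pathway genes are named where they passed the test with one of the 3 highest or 3 lowest LFC among the genes of their list that passed. Of the genes that met the rule 1 is not reported here, nor is 1 of the pathway list, and the counts leave both out. Alternatives were the quasi-likelihood test, DESeq2 1.42.0, other normalizations, filters and thresholds, leaving out each mouse and a replicate block. Promoter sequences and start sites are from RefSeq on GRCm38.p6 and exon overlaps from GENCODE M21, which need not be the release used for counting. Mice were separate animals, none was left out, and no pair of mice of the same group agreed within sampling noise (mean chi-square per gene 21.3 to 126).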

Additional observations from a re-analysis of the deposited data

Results flagged for a closer look

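In 29 genes with values per mouse, each group was examined for a mouse far from the others by Dixon's criterion at 95%, and 2 of 58 groups were flagged, where chance flags about 1 in 20 groups. Germ-free mouse 4 had the highest level of Tgfb2, 1.21 RPKM, and the next germ-free mouse had 0.860 RPKM, a gap of 0.823 of the range. Humanized mouse 6 had the highest level of Bmp2, 15.5 RPKM, and the next humanized mouse had 9.91 RPKM, a gap of 0.689 of the range. Another 4 genes were given per mouse after their values were seen, and 2 of their groups met the criterion, which cannot be set against chance. Humanized mouse 6 had the highest humanized level of Gdf10, 0.390 RPKM, and the next had 0.113 RPKM, a gap of 0.711 of the range. Humanized mouse 5 had the highest humanized level of Bmper, 3.59 RPKM, and the next had 1.76 RPKM, a gap of 0.657 of the range. Germ-free mouse 4 and humanized mouse 6 also had the highest median log2 ratio of the smooth muscle markers in their groups (0.81 and −0.60), and humanized mouse 5 the lowest (−3.93), and the part of these levels in the values above was not tested.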

How the results depend on the processing

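Of the 17 downregulated genes, all kept their call in DESeq2, with RLE, upper-quartile and total-count normalization and with epithelial scaling, 11 kept it in the quasi-likelihood test, and 14 kept it in all 11 fits without 1 mouse, the 3 others being Chrd, Smad5 and Gdf10. No call reversed under any alternative. The count of downregulated genes was 29 at FDR below 0.05, 30 with total counts, 27 with epithelial scaling and 11 in the quasi-likelihood test, against 14 to 27 without 1 mouse. Over all genes the shares lower were 14.6%, 18.2%, 15.6% and 6.53% in these 4 settings and 7.45% to 11.8% without 1 mouse. The count of upregulated genes was 2 at FDR below 0.05 (Id1 and Id3, where 14% of all genes were higher) and 0 to 1 without 1 mouse (Smad1 without humanized mouse 3, Id1 without humanized mouse 4), and 0 under every other alternative. Of the other pathway genes, 15 to 22 were lower and 3 to 7 higher without 1 mouse. With total counts and with epithelial scaling, 2 were higher. Over all genes, 6.69% to 10.6% were higher without 1 mouse, and 3.89% and 2.76% with these scalings.

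Mouse numbers name different animals in the 2 groups, and same-numbered mice did not deviate together, with correlations of their deviations between −0.133 and 0.091. With the replicate number as a block in the quasi-likelihood test, 6 of the 55 genes were lower and 0 higher (2.55% of all genes in each direction). Of the 17 downregulated genes 12 lost their call under the block, and Bmp2 gained one (FDR = 0.00787). Of the other pathway genes 7 were lower and 2 were higher. At these depths, Gdf5 and Bmpr1b rested on 115 and 166 reads in all.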
